A study of Mus musculus with 10 samples.

Results

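The genes described here are 10 genes of hepatic insulin signalling: the receptor genes Insr and Igf1r, the receptor substrates Irs1 and Irs2, the PI3-kinase regulatory subunit Pik3r1, the kinases Akt1 and Akt2, and the transcription factors Foxo1, Foxo3 and Foxo4. They were chosen by name, and every array feature (transcript cluster) listed with that 1 symbol was taken, which gave 12 transcript clusters of the 23521 with 1 symbol. Irs1 and Foxo1 had 2 clusters each and the other 8 genes had 1. The data were RNA levels in 10 liver samples of male mice that were fasted before collection, on 1 array each, about 2 weeks after infection with an adeno-associated virus whose TBG promoter (of the thyroxine-binding globulin gene) drives expression in hepatocytes. Values are on the log2 scale as the authors' RMA processing gave them, so a difference of 1 is a doubling.

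The HFD GFP group (n = 3) was wild-type mice kept on a high-fat diet with the GFP virus, the control cargo. The HFD FST288 group (n = 3) was mice of the same genotype and diet with the virus for FST288, an isoform of the secreted activin-binding protein follistatin. The LTKO GFP (n = 2) and LTKO FST288 (n = 2) groups were mice labelled LTKO with the same viruses. What LTKO stands for is not in the labels. As background, it is known as a liver triple knockout, in which a Cre recombinase under the albumin promoter removes Irs1, Irs2 and Foxo1 in hepatocytes while other liver cells keep these genes. No diet is given for LTKO mice, so genotype and diet cannot be told apart in any comparison of LTKO with HFD livers. Ages, and whether each sample was a separate animal, are not stated either, so p-values rest only on how far these samples spread, which may be technical.

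As background, insulin bound to its receptor causes the receptor to phosphorylate IRS proteins on tyrosine, and these recruit PI3-kinase through its regulatory subunit. The lipid that PI3-kinase makes brings AKT to the membrane, where it is activated, and AKT phosphorylates FoxO factors and thereby keeps them out of the nucleus. In a fasted liver, with little insulin, FoxO1 is in the nucleus and drives genes of glucose output, Igfbp1 and Irs2, while in the fed state AKT shuts this off and lipogenic genes rise.

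Over the whole series, array medians lay between 2.71 and 2.75 for all clusters and between 3.04 and 3.12 for those with 1 symbol. Replicates of a group correlated at 0.989 to 0.993. The hepatocyte marker genes Alb and Ttr were at 13.05 to 13.21 and 12.17 to 12.82, and all 10 hepatocyte markers were at 7.51 or more on average. These markers were not level between groups. With the FST288 virus in HFD livers, Ttr (-0.39) and Apoa1 (-0.4) were lower at an adjusted p under 0.05, and 0 of the 10 were higher. Their differences between LTKO and HFD livers are given below with those of other cell types. The median of 7 pancreatic acinar markers was 8.29 and 7.32 on HFD FST288 replicates 2 and 3, against 2.11 to 2.47 on the other 8 arrays, so results that use HFD FST288 are also given without those arrays where it matters. That setting leaves 1 HFD FST288 array, so a call can be lost there through fewer arrays alone. A lost call therefore does not show that a difference depends on the acinar signal. Fst rose with the FST288 virus from 5.27 ± 0.06 to 6.35 ± 0.52 (SD, n = 3 and 3) in HFD livers, and from 5.35 ± 0.06 to 6.79 ± 0.08 (n = 2 and 2) in LTKO livers (adjusted p = 0.0155 and 0.0326). The first of these calls was lost in 4 and the second in 7 of 10 fits that left out 1 array.

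The comparison of LTKO GFP with HFD GFP livers asks how far the targeted genes, and the rest of the insulin pathway around them, differ in mRNA. Irs1, Irs2, Foxo1, Foxo3 and Pik3r1 were lower in LTKO livers and Akt1 was higher. No call was made for Insr, Igf1r, Foxo4 and Akt2. Thus 6 of the 12 clusters were called at an adjusted p under 0.05, 5 lower and 1 higher, where 12.8% of all clusters were called, 6.25% lower and 6.51% higher. The share of all clusters includes dim ones, and it was higher among bright clusters, as given below with the lists. The LTKO GFP arrays lay entirely below the HFD GFP arrays in 19.2% of all clusters and entirely above them in 20.8%, so a lack of overlap between such small groups is common.

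Of the targeted genes, Irs1 encodes the insulin receptor substrate that passes the signal on to PI3-kinase together with IRS2. Its brighter cluster (17224878) read 4.82, 5.14 and 4.77 on the HFD GFP arrays and 3.19 and 3.10 on the LTKO GFP arrays. On the other virus it read 4.91, 4.78 and 4.75 in HFD FST288 and 3.35 and 3.02 in LTKO FST288 livers. All 4 LTKO values lay below all 6 HFD values, near the array medians of 3.04 to 3.12, where low signal limits how exactly a fold can be read. The LTKO GFP mean was 3.40-fold below the HFD GFP mean, a log2 difference of -1.77 ± 0.15 (SE, adjusted p = 5.25e-06). The FST288 groups, which share no array with these but share the fit's estimate of the spread, differed by -1.63 ± 0.15 (adjusted p = 1.1e-05). A second Irs1 cluster (17214753) was dim, from 1.65 to 2.08 over the 10 arrays, and its difference of -0.01 ± 0.13 was not called (adjusted p = 0.973).

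Irs2 encodes the substrate that is itself induced in fasting. Its cluster (17507374) read 4.05, 4.28 and 4.12 in HFD GFP and 4.28, 4.02 and 4.37 in HFD FST288 livers. The LTKO GFP arrays read 2.52 and 3.36 and the LTKO FST288 arrays 2.49 and 3.14. LTKO values were thus lower on all 4 arrays but spread more than the HFD values, with an SD of 0.60 against 0.12 in the GFP groups. As for Irs1, the LTKO values lie around or below the array medians, which limits how exactly a fold can be read. The difference was -1.21 ± 0.24 with GFP (2.31-fold lower as measured, adjusted p = 0.00413) and -1.41 ± 0.24 with FST288 (adjusted p = 0.00154). Without LTKO GFP replicate 1 the first was -0.79 and not called (adjusted p = 0.0722). A further cluster listed with both Irs2 and 9530052E02Rik falls outside the rule and read 2.40 to 2.90.

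Foxo1, the FoxO factor that insulin restrains in liver, was also lower on all 4 LTKO arrays. Its brighter cluster (17397497) read 6.60, 6.83 and 6.74 in HFD GFP and 6.83, 6.85 and 6.86 in HFD FST288 livers. It read 4.93 and 5.15 in LTKO GFP and 4.92 and 4.58 in LTKO FST288 livers, so the lowest HFD value was well above the highest LTKO value. The difference was -1.68 ± 0.13 with GFP (3.21-fold lower, adjusted p = 1.59e-06) and -2.09 ± 0.13 with FST288 (4.27-fold lower, adjusted p = 1.98e-07). The LTKO values stayed above the array medians, and in whole liver RNA a loss from some cells and a lower level per cell cannot be told apart. The other Foxo1 cluster (17405165) lay between 3.32 and 3.93 on all arrays, and its difference of -0.12 ± 0.18 with GFP was not called (adjusted p = 0.75). The position of either cluster relative to the deleted exons is not given in the sources used here, so the uncalled clusters check nothing about the deletion.

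Foxo3, a paralogue of Foxo1 that is not among the genes named for the LTKO model, was also lower. Its cluster (17240529) read 5.54, 5.57 and 5.78 in HFD GFP livers against 3.88 and 4.39 in LTKO GFP livers. With FST288 it read 5.88, 5.36 and 5.48 in HFD and 4.62 and 4.41 in LTKO livers. Again no LTKO value reached the lowest HFD value. The difference was -1.50 ± 0.18 with GFP (2.82-fold lower, adjusted p = 8.2e-05) and -1.06 ± 0.18 with FST288 (2.09-fold lower, adjusted p = 0.00148). The GFP call held in every one of the 10 fits that left out 1 array, where the difference ran from -1.75 to -1.25. The FST288 call also held in all 10, and was lost with macrophage markers as a covariate, a setting chosen after seeing the data (-0.86, adjusted p = 0.174).

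Foxo4, another FoxO gene, was not called. It read 4.62, 4.31 and 4.64 in HFD GFP and 4.60 and 5.17 in LTKO GFP livers, so that the groups overlapped. The difference was 0.36 ± 0.17 (95% interval -0.01 to 0.73, adjusted p = 0.213) with GFP and 0.17 ± 0.17 (adjusted p = 0.682) with FST288. It was called without LTKO GFP replicate 1, where 1 LTKO GFP array is left (0.65, adjusted p = 0.0475).

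Pik3r1 encodes p85alpha, the regulatory subunit that docks PI3-kinase to IRS proteins. Its cluster (17295796) read 7.83, 7.85 and 7.98 in HFD GFP and 8.16, 7.93 and 8.11 in HFD FST288 livers, against 7.05 and 7.11 in LTKO GFP and 6.72 and 7.26 in LTKO FST288 livers. Every LTKO array was lower than every HFD array. The difference was -0.81 ± 0.14 with GFP (1.75-fold lower, adjusted p = 0.00138) and -1.07 ± 0.14 with FST288 (2.10-fold lower, adjusted p = 0.000149). Both calls held in every fit that left out 1 array.

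The AKT kinases differed from each other in what was called. Akt1 (17284201) read 6.0, 5.86 and 5.79 in HFD GFP livers and 6.36 and 6.66 in LTKO GFP livers, without overlap, a difference of 0.63 ± 0.13 (1.55-fold higher, adjusted p = 0.00515). Without LTKO GFP replicate 2 it was 0.48 and not called (adjusted p = 0.0719). With FST288 the LTKO arrays, at 6.30 and 6.41, again lay above the HFD arrays, at 6.01, 5.85 and 6.14, but the difference of 0.36 ± 0.13 was not called (adjusted p = 0.113). Akt2 (17475640), the isoform best known for insulin action in liver, read 6.26 to 6.46 on all 10 arrays. Its difference was 0.00 ± 0.11 with GFP (95% interval -0.23 to 0.23, adjusted p = 0.999) and -0.01 ± 0.11 with FST288 (adjusted p = 0.984). Whether the Akt1 and Akt2 differences differ from each other was not tested.

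Of the receptors, Insr (17507057) read 7.53, 7.59 and 7.51 in HFD GFP livers and 7.20 and 7.53 in LTKO GFP livers, which overlap. That difference was -0.18 ± 0.10 (95% interval -0.40 to 0.04, adjusted p = 0.314). With FST288 the HFD arrays read 7.69, 7.65 and 7.65 and both LTKO arrays 7.31, and the difference of -0.36 ± 0.10 (1.28-fold lower) was called with an adjusted p of 0.0423. That call was lost in 8 of 10 fits that left out 1 array, with quantile normalization (-0.31, adjusted p = 0.0955) and without the acinar-high arrays (-0.38, adjusted p = 0.279). Igf1r (17479099), the related receptor that hepatocytes express weakly, read 3.03 to 3.59 over all arrays, close to the array medians. Its differences of 0.04 ± 0.16 and -0.22 ± 0.16 were not called (adjusted p = 0.929 and 0.53).

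**Figure D1:**
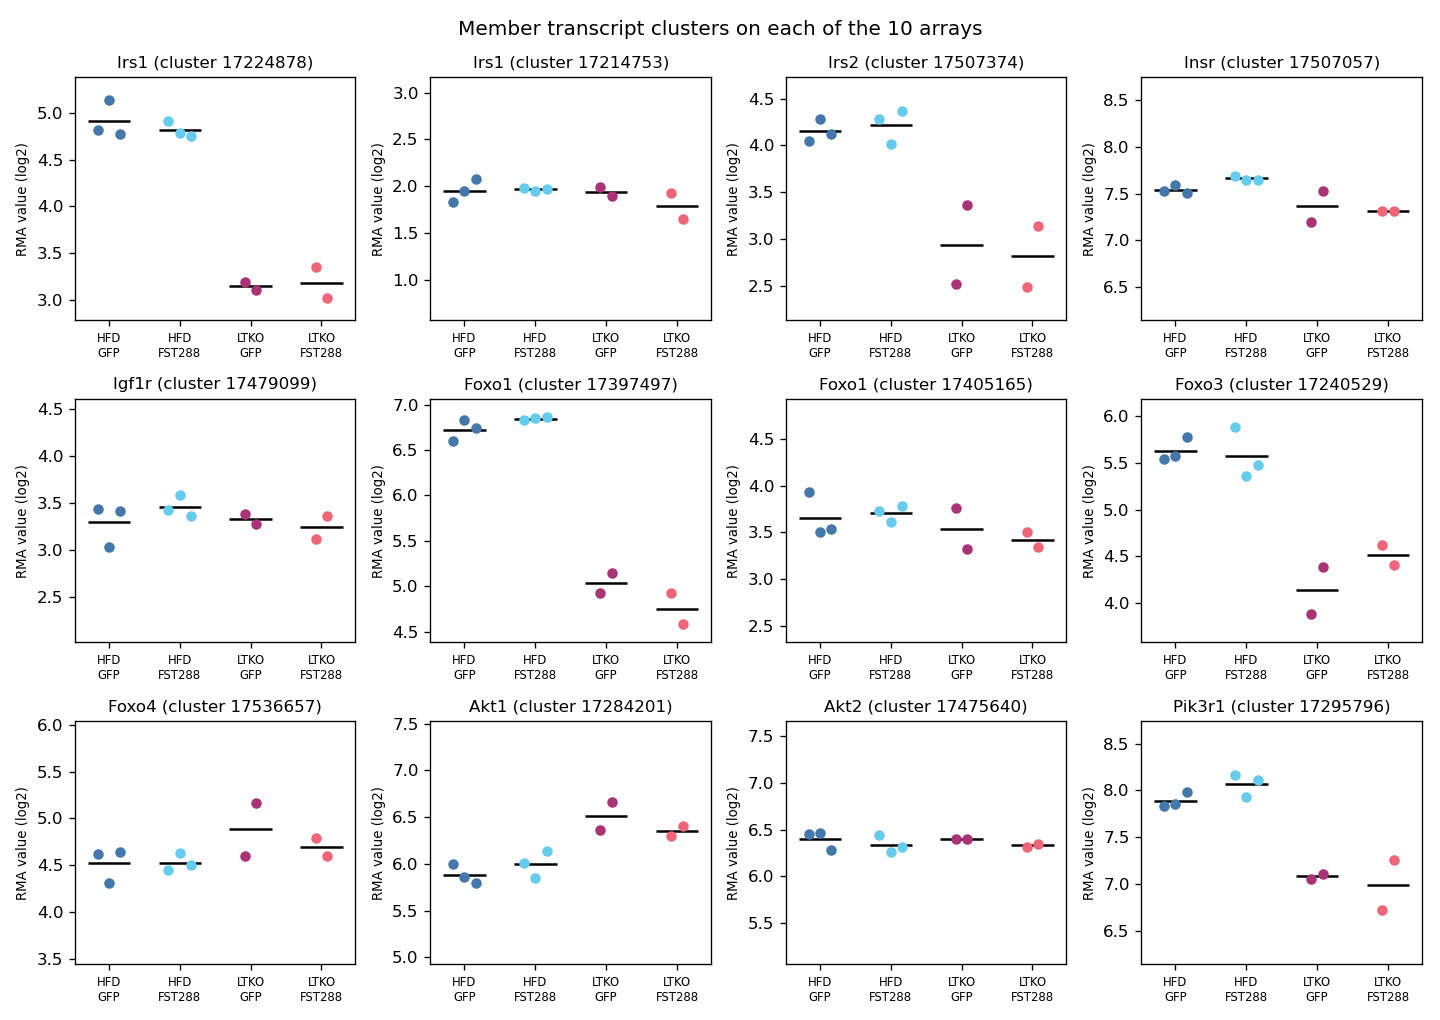
RMA value (log2) of each of the 12 transcript clusters on each array (points), by group, with the group mean as a black line. All panels span the same number of log2 units, each around its own level. In the brighter Irs1 cluster, Irs2, the brighter Foxo1 cluster, Foxo3 and Pik3r1 the 4 LTKO arrays lie below the 6 HFD arrays.

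In the FST288 groups 6 of the 12 clusters were called, all lower (Irs1, Irs2, Foxo1, Foxo3, Pik3r1 and Insr), where 10% of all clusters were called 5.07% lower and 4.94% higher. The LTKO FST288 arrays lay entirely below the HFD FST288 arrays in 18.3% of all clusters and above them in 18.8%. The median difference of the 10 genes was -0.49 with GFP and -0.71 with FST288, against 0.009 and 0 over all clusters. Of the 10 hepatocyte markers, 3 were called lower (Apoa1, Cps1 and Tat) and 2 higher (Cyp2e1 and Hnf4a) with GFP. With FST288, 3 were called lower (Cps1, Tat and Serpina1a) and 0 higher. Their summed level was 15.31 to 15.38 in LTKO GFP and 15.39 to 15.44 in HFD GFP livers. It was 15.22 to 15.3 in LTKO FST288 and 15.34 to 15.37 in HFD FST288 livers. Markers of other cell types were also called in both comparisons. The summed level of 8 Kupffer cell and macrophage markers was 9.28 to 10.45 (log2) in LTKO FST288 and 8.63 to 8.87 in HFD FST288 livers, and 6 of the 8 were called higher. In the GFP groups it was 9.02 to 9.16 in LTKO and 8.58 to 9.16 in HFD livers, with 0 of 8 called by limma (2 at an unadjusted p under 0.05). The summed level of 8 stellate cell and fibroblast markers was 10.61 to 10.62 in LTKO GFP against 10.19 to 10.34 in HFD GFP livers, and 10.64 to 10.91 in LTKO FST288 against 10.27 to 10.35 in HFD FST288 livers, without overlap. With GFP 2 of these 8 were called higher (Rgs5 and Ecm1) and 1 lower (Lrat), and with FST288 2 were called higher (Rgs5 and Dcn). Of 8 endothelial markers Lyve1 was called lower in both comparisons, and Kdr was called higher with FST288. Of 7 lymphocyte markers 2 (Cd3e and Cd3g) were called higher with FST288 and 0 with GFP (1 at an unadjusted p under 0.05 by limma), and their summed level was 5.59 to 6.22 against 5.33 to 5.36 with FST288 and 5.51 to 5.66 against 5.37 to 5.50 with GFP. Apart from the covariate fits, the part of these markers in the members' values was not tested.

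**Figure D2:**
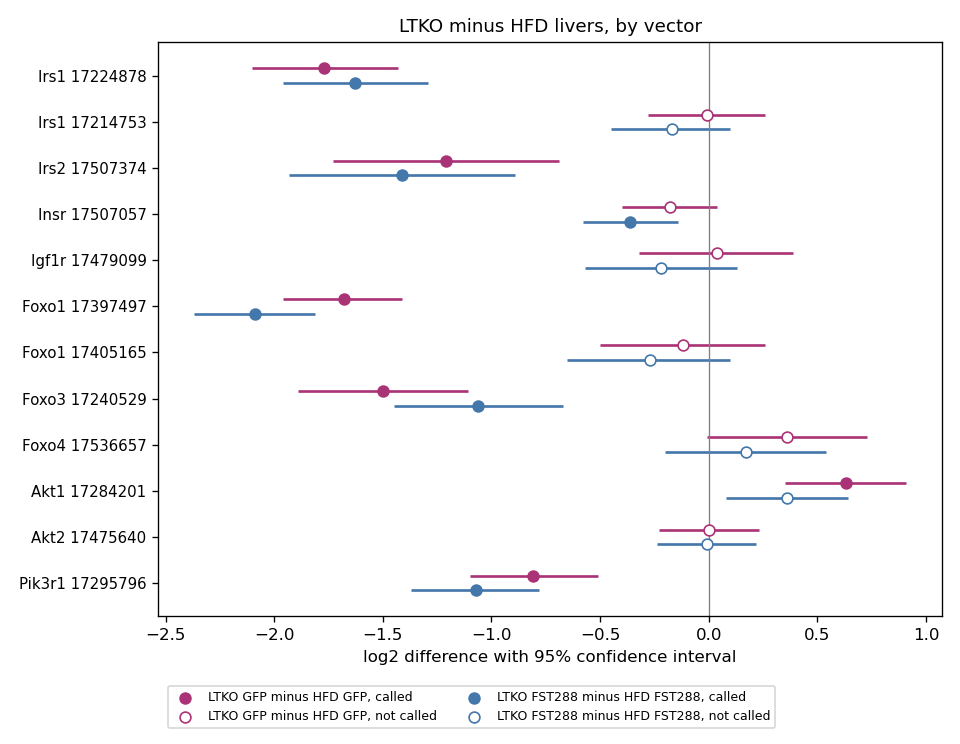
Log2 difference between LTKO and HFD livers for each cluster with its 95% confidence interval, in the GFP groups (purple) and in the FST288 groups (blue). Filled points passed an adjusted p of 0.05. The brighter clusters of Irs1 and Foxo1, and Irs2, Foxo3 and Pik3r1, are filled on the left in both, Insr on the left with FST288, and Akt1 on the right with GFP.

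The sequences just before the transcription starts are shown for the Irs genes, for Foxo3, Pik3r1 and Akt1, which were called without being targeted, and for Igfbp1, a classical FoxO1 target that serves as a reference. They are the 250 bases before a start, 5′ to 3′ on the gene's strand, from RefSeq (GRCm38.p6). Of the 10 genes 8 matched, with 13 starts, and Foxo4 and Insr were not matched. Capitals mark the FoxO core GTAAACA and the insulin response element core CAAAACA, searched on both strands (reverse TGTTTAC and TGTTTTG); these share no position in the sequences shown.
Irs1, chr1:82291440-82291689, minus strand: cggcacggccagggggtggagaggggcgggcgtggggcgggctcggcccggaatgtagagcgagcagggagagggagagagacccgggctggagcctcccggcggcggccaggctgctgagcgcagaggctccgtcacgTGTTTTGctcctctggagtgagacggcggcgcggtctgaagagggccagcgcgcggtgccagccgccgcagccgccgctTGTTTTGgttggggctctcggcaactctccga
Irs2, chr8:11008930-11009179, minus strand: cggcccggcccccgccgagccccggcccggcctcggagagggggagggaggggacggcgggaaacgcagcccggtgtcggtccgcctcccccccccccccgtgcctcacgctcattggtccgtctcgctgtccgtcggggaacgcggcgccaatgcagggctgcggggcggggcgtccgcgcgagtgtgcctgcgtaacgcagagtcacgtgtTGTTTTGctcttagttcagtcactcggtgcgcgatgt
Foxo3, chr10:42276696-42276945, minus strand: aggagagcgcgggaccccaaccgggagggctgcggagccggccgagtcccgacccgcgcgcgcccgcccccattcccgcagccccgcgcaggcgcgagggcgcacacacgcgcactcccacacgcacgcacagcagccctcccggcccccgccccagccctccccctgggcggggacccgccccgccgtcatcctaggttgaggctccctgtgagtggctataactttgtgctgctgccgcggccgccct
Pik3r1 (first of 2 starts), chr13:101768218-101768467, minus strand: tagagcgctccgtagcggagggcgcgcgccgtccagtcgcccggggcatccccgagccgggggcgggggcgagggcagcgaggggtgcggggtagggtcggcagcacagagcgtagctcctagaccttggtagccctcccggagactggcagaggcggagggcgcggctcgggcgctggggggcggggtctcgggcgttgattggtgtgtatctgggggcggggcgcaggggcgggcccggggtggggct
Pik3r1 (second of 2 starts), chr13:101692631-101692880, minus strand: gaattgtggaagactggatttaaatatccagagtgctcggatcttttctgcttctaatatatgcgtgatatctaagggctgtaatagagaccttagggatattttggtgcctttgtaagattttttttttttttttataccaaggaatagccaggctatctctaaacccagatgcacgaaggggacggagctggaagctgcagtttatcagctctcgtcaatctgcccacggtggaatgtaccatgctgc
Akt1 (first of 2 starts), chr12:112674885-112675134, minus strand: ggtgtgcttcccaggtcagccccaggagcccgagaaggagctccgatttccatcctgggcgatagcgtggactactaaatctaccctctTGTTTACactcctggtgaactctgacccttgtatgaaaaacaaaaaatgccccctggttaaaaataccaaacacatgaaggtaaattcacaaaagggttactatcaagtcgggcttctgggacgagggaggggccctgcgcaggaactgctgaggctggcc
Igfbp1, chr11:7197537-7197786, plus strand: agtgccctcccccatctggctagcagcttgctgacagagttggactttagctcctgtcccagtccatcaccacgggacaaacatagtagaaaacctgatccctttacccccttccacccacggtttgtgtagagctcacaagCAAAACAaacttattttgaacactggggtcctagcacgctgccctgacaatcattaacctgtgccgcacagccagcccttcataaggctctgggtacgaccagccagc

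CAAAACA was found in the windows of Irs1, at 111 and 32 bases before the start, and of Irs2, at 37 bases, all on the reverse strand. In Igfbp1 it lay at 108 bases on the forward strand. GTAAACA was found in the window of the first of the 2 Akt1 starts, at 161 bases on the reverse strand. The window of the second Akt1 start, not shown, held neither. Thus CAAAACA was in 2 and GTAAACA in 1 of the 13 windows of the members, where 5.56% and 3.17% of 32851 promoters of that length hold them. Neither stretch of letters was in the windows of Foxo3, Foxo1, Pik3r1, Igf1r or Akt2. A match is a description of the letters and not a site of binding.

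The question of the vector comparisons is whether follistatin changes these genes. None of the 12 clusters was called between FST288 and GFP in HFD livers, where 0.961% of all clusters were called (0.553% higher, 0.408% lower), or in LTKO livers, where 0.132% were called (0.0808% higher, 0.051% lower). At an unadjusted p under 0.05 limma gave 0 and 0 of the 12. In HFD livers the differences ran from -0.10 (Irs1) to 0.18 (Pik3r1). The 95% intervals reached at most 0.54, in Irs2 (-0.39 to 0.54), and Insr at 0.12 ± 0.09 had all 3 FST288 arrays above the 3 GFP arrays (adjusted p = 0.674), as in 9.08% of all clusters, with 9.18% lying below. In LTKO livers the differences ran from -0.29 ± 0.14 in Foxo1 (95% interval -0.59 to 0.02, adjusted p = 0.534) to 0.38 ± 0.20 in Foxo3 (-0.05 to 0.81, adjusted p = 0.568). In Foxo1 both FST288 arrays lay below both GFP arrays, as in 20.9% of all clusters (also Akt2, by -0.06), and in Foxo3 both lay above, as in 16.8%. The difference between the vector effects of LTKO and HFD livers was tested as well and gave 0 calls of 12 by limma, where 0.191% of all clusters were called (0.106% higher, 0.085% lower) and 1 of the 12 passed an unadjusted p under 0.05. That member was Foxo1, at -0.41 ± 0.18 (95% interval -0.80 to -0.02, adjusted p = 0.381). The difference was 0.44 ± 0.26 in Foxo3 (adjusted p = 0.512).

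**Figure D3:**
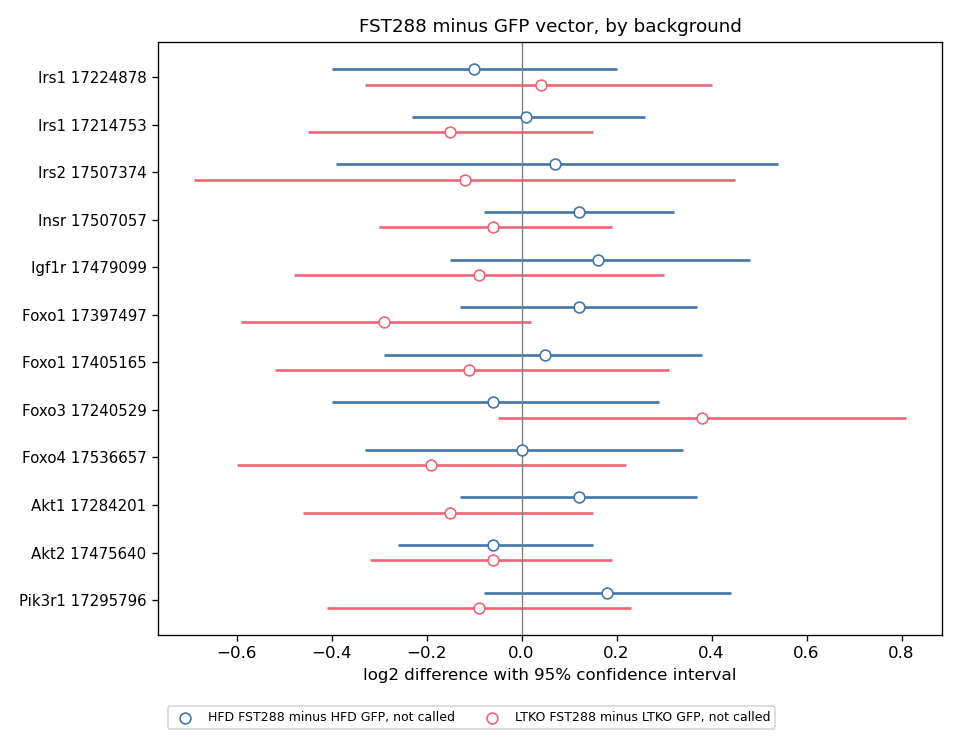
Log2 difference between FST288 and GFP livers for each cluster with its 95% confidence interval, in HFD (blue) and LTKO (red) livers. All points are open, as none passed an adjusted p of 0.05; the intervals are wider in LTKO livers, with 2 arrays a group.

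Other genes of the pathway were counted by lists, with the brightest cluster standing for a gene, and are given here for LTKO GFP against HFD GFP unless the FST288 groups are named. Each list's called share is read against the 12.8% of all clusters called in that comparison. That share counts dim clusters too, while the brightest cluster stands for each list gene. With only bright clusters kept, those above the median mean level, 3225 were called. That is more calls than the 3002 among all 23521 clusters, so the share among bright clusters was well above 12.8%. A list share near or moderately above 12.8% can therefore lie below the share among bright clusters. Whether a list's share differs from that of clusters of like brightness was not tested. The 4 further ligand and receptor genes gave 0 calls by limma in both comparisons (0 and 2 at an unadjusted p under 0.05), with Igf1, the growth factor secreted by hepatocytes, at -0.02 ± 0.10 (adjusted p = 0.947). Of 19 adaptors and inhibitors near the receptor, 2 rose and 2 fell, a called share of 21.1% (median 0.10). Sh2b1, an adaptor that enhances receptor signalling, was 0.87 ± 0.13 higher and the ubiquitin ligase Cblb 0.65 ± 0.12 higher (adjusted p = 0.00038 and 0.00281). With FST288 Cblb was again called (0.71) and Sh2b1 was not (0.33, adjusted p = 0.138). That Cblb call was lost without the acinar-high arrays and with macrophage markers as a covariate. Ceacam1, a receptor substrate that promotes insulin clearance, was at -0.33 ± 0.06 (adjusted p = 0.00173) and the docking protein Gab1 at -0.46 ± 0.13 (adjusted p = 0.0305, lost in 4 of 10 fits without 1 array). With FST288 Ceacam1 was at -0.36 and called, and Gab1 at -0.29 and not called (adjusted p = 0.23). That Ceacam1 call was lost with macrophage markers as a covariate. Ptpn1, the phosphatase that switches the receptor off, was at 0.47 ± 0.18 (adjusted p = 0.108), and the receptor inhibitor Grb14 at -0.22 ± 0.13 (adjusted p = 0.359).

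Among 15 further PI3-kinase subunits and lipid phosphatases 1 was called, which fell, a share of 6.67%, below that of all clusters. It was Pik3c2a, a class II PI3-kinase, at -0.72 ± 0.11 (adjusted p = 0.00045), and at -0.48 with FST288 (adjusted p = 0.00901). The latter call was lost without the acinar-high arrays, and with acinar or macrophage markers as a covariate. The catalytic subunits Pik3ca (-0.14 ± 0.09, adjusted p = 0.383) and Pik3cb (-0.46 ± 0.17, adjusted p = 0.1) and the AKT-activating kinase Pdpk1 (-0.02 ± 0.12, adjusted p = 0.937) were not called. The regulatory subunit gene Pik3r2 was at 0.23 ± 0.15 (adjusted p = 0.367), while Pik3r1 fell. Of 20 AKT regulators and substrates 10% were called, near the share of all clusters. Acly, which makes acetyl-CoA for lipid synthesis, fell by 2.50 (adjusted p = 3.91e-08), and Ppp2ca, a phosphatase catalytic subunit, rose by 0.52 (adjusted p = 0.014; 0.16 and not called with the mean of its clusters). With FST288 Acly was at -2.12 and called, and Ppp2ca at 0.08 and not called (adjusted p = 0.807). In the FST288 groups 30% of these 20 genes were called, 5 higher and 1 lower, where 10% of all clusters were called. The AKT-related kinases Sgk1 (0.83 ± 0.14), Sgk2 (0.68 ± 0.16) and Sgk3 (0.63 ± 0.13) were called higher there. Those 3 calls were lost without the acinar-high arrays, where 1 HFD FST288 array is left. The GFP values were 0.08, 0.28 and 0.29 (adjusted p = 0.801, 0.319 and 0.192).

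Of 17 mTOR and translation genes 3 rose and 3 fell, a called share of 35.3%. The mTOR inhibitors Ddit4 (-1.40 ± 0.17), Deptor (-0.73 ± 0.10) and Sesn3 (-1.58 ± 0.14) were lower with GFP, with adjusted p of 7.16e-05, 0.000207 and 7.33e-06. They were also lower with FST288 (-1.26, -0.69 and -1.21), where the Deptor call was lost with macrophage markers as a covariate. Sesn2, another inhibitor of this family, was 0.83 ± 0.13 higher (adjusted p = 0.000883) and at 0.27 with FST288, which was not called (adjusted p = 0.284). Of 17 FoxO family members and cofactors 1 rose and 1 fell, and this 11.8% is near the share of all clusters. The coactivator Ppargc1a was at -0.70 ± 0.15 (adjusted p = 0.00727), lost without LTKO GFP replicate 2, and at 0.08 with FST288 (adjusted p = 0.861). Foxo6 was at 0.51 ± 0.15 (adjusted p = 0.0423), a call lost in 7 of 10 fits without 1 array, and at -0.01 with FST288 (adjusted p = 0.992).

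Of 29 FoxO-responsive genes 6 rose and 7 fell, a called share of 44.8%, with a median of -0.06. Pdk4, which blocks glucose oxidation, was higher by 3.67 ± 0.16 with GFP and by 4.22 ± 0.16 with FST288 (adjusted p = 6.39e-09 and 1.31e-09). It read 4.11 to 4.62 on the HFD arrays and 7.91 to 8.64 on the LTKO arrays. Gadd45b (2.71 ± 0.19), the cell cycle inhibitor Cdkn1a (2.66 ± 0.29) and Txnip (1.45 ± 0.18) also rose. With FST288 Gadd45b (3.02) and Cdkn1a (1.84) were again called, and Txnip was not (0.29, adjusted p = 0.402). Between FST288 and GFP in HFD livers Txnip rose by 1.22 and Cdkn1a by 1.27 (adjusted p = 0.00228 and 0.0322). Both calls were lost without the acinar-high arrays, where 1 HFD FST288 array is left. Among those that fell were Sesn3, the glucose output enzymes G6pc (-0.65 ± 0.16, adjusted p = 0.0153) and Pck1 (-0.52 ± 0.11, adjusted p = 0.0072), and the transcription factor Klf15 (-0.54 ± 0.14; -0.73 with FST288, called). The GFP call of Klf15 held in 7 of 10 fits that left out 1 array, and was lost when all clusters of the table were fitted. Its FST288 call was lost with macrophage markers as a covariate. The calls of G6pc and Pck1 were lost without LTKO GFP replicate 1 (-0.35 and -0.40), and neither was called with FST288 (adjusted p = 0.269 and 0.849). That of G6pc was also lost without HFD GFP replicate 3 and when all clusters of the table were fitted.

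Igfbp1, the IGF carrier whose gene FoxO1 drives, varied within LTKO livers. It read 8.29, 8.06 and 8.39 in HFD GFP, 7.94, 8.32 and 8.20 in HFD FST288, 7.99 and 9.27 in LTKO GFP, and 9.85 and 10.24 in LTKO FST288 livers. Both LTKO FST288 arrays were above all others, and of the LTKO GFP arrays 1 lay within the HFD range and 1 above it. It was not called with GFP (0.38 ± 0.26, adjusted p = 0.423) but was with FST288 (1.89 ± 0.26, adjusted p = 0.000326). The latter call was lost with macrophage markers as a covariate (1.56, adjusted p = 0.073), and the difference between the vector effects of LTKO and HFD livers was not called (1.51 ± 0.37, adjusted p = 0.132). The change without LTKO GFP replicate 1 was 1.02, which was called, and without replicate 2 it was -0.26.

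Of 17 insulin-induced genes 10 were called lower and 4 higher, a share of 82.4%, with a median of -1.54, against 0.009 for all clusters. Thrsp, a lipogenic regulator, was at 10.82 to 11.43 on the HFD arrays and 5.92 to 6.50 on the LTKO arrays, a difference of -4.87 ± 0.13 with GFP (adjusted p = 7.24e-11). Pklr, the liver pyruvate kinase gene (-3.03 ± 0.17), the desaturase Scd1 (-1.95 ± 0.09), Srebf1, encoding the lipogenic factor SREBP-1 (-1.72 ± 0.16), and Ppp1r3b, a glycogen-targeting phosphatase subunit (-1.54 ± 0.09), were also lower. Another glycogen-targeting subunit, Ppp1r3c (2.70 ± 0.14), and Angptl8, a secreted inhibitor of lipoprotein lipase (1.6 ± 0.16), were higher. With FST288 the counts were 10 lower and 3 higher, and the values of Srebf1 (-0.71), Ppp1r3c (1.65) and Angptl8 (0.55) were smaller in size but called. Between FST288 and GFP, Srebf1 fell by 1.17 and Ppp1r3c rose by 0.64 in HFD livers, and Angptl8 fell by 1.14 in LTKO livers (adjusted p = 0.00117, 0.0281 and 0.0179). These 3 vector calls, and those of Srebf1 and Angptl8 between LTKO FST288 and HFD FST288, were lost without the acinar-high arrays, and the latter Angptl8 call was lost in 7 of 10 fits without 1 array.

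**Figure D4:**
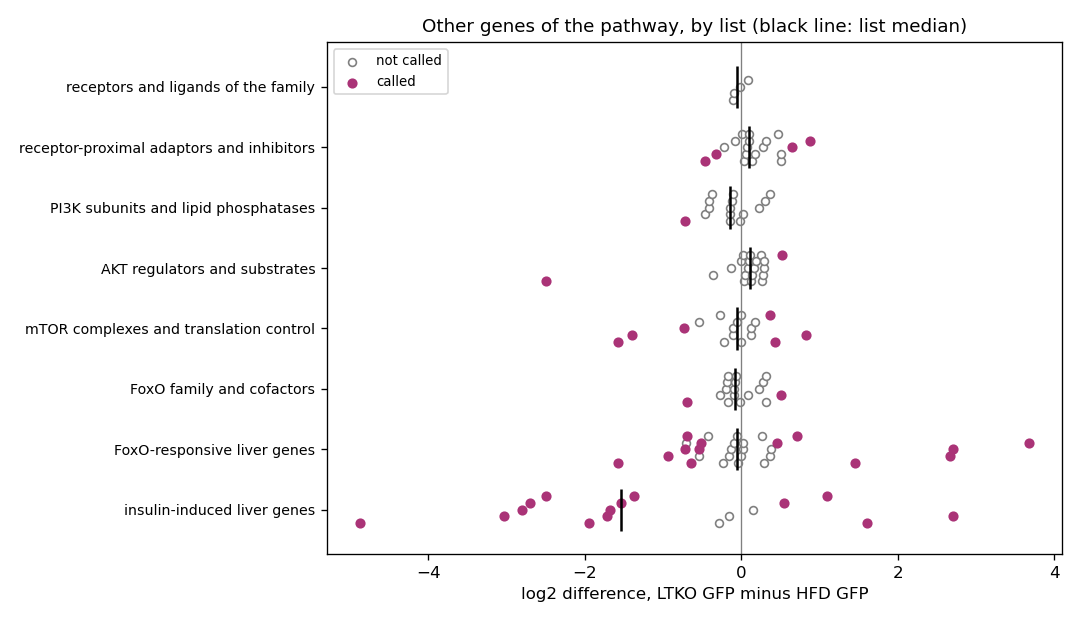
Log2 difference between LTKO GFP and HFD GFP livers for the other genes of the pathway (points), by list, with the list median as a black line. Filled points passed an adjusted p of 0.05. The insulin-induced list has its median at -1.54, and the other list medians lie between -0.14 and 0.11.

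The genes whose profiles over the 10 arrays were nearest to those of the targeted genes were found by the root mean square difference, each profile less its own mean. For Irs1, whose own spread was 0.84, they were the nuclear receptor Nr1d2, the cholesterol synthesis gene Nsdhl and the transcription factor Klf13, each at 0.16. For Foxo1 (own spread 0.94) they were the transporter Slc17a4 at 0.16, Ppp1r3b at 0.17 and the clock gene Per3 at 0.19. For Irs2 (own spread 0.69) they were the histone gene H2az1 at 0.16, the tryptophan-degrading enzyme Ido2 at 0.23 and Mtss1 at 0.24. Between LTKO GFP and HFD GFP livers these genes differed by -1.99 (Nr1d2) to -0.88 (H2az1, adjusted p = 0.0509), and the likeness rests mainly on the step between HFD and LTKO arrays.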

How the data were processed

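RNA of 10 liver samples was hybridised to 1 Affymetrix array each. The deposited log2 values were made by the authors with RMA in Affymetrix Expression Console, per the submitters' processing notes; RMA corrects background, equalises array distributions and summarises the probes of a cluster. That the scale is log2 follows from RMA, whose output has that base, and fits the range of the values (0.64 to 13.21). Arrays give no counts, so their number limits precision.

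Of 41345 transcript clusters, 23521 had 1 symbol in the supplied platform annotation (22180 genes), 1814 had several and 16010 were not listed; the last 2 kinds were left out. In limma 3.58.1 (R 4.3.3), lmFit estimated the mean of each group from all 10 arrays together, and eBayes moderated the spread along the intensity. Each of the 5 contrasts was tested on both sides, with Benjamini-Hochberg adjustment across 23521 clusters; called means an adjusted p under 0.05. Errors of differences are standard errors of the fit and intervals are 95%. The members, lists, contrasts and alternatives were chosen with earlier results of these data known. The named genes were all members, up to 4 called list genes with the smallest p per list, direction and contrast, and a set of pathway genes. The results describe all members but only some of the other named genes. Called genes such as Dusp6, Rps6 and Mttp are not described there. Fst was read as the virus's cargo. Listed genes without a cluster of 1 symbol were not analysed here. Data were also simulated with independent normal noise, from each cluster's mean over all arrays and its spread within groups, with changes set in few clusters. There 15.4% of changes of 0.5 and 76.2% of changes of 1 were recovered for LTKO GFP against HFD GFP (24.4% and 82% for the HFD groups), with 6.91% and 5% false calls. In the data 3002 clusters were called for LTKO GFP against HFD GFP, which alters the adjustment, so these are not the recovery rates of the data. No block was used, as nothing in the labels says that a number marks a shared litter or day. Same-numbered arrays did not deviate together (correlations from -0.06 to 0.05). In groups of 2 the deviations mirror each other, so these correlations are not independent.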

Additional observations from a re-analysis of the deposited data

How the results depend on the processing

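Of the 12 calls made for member clusters in the comparisons of LTKO with HFD livers, 9 held in every fit that left out 1 array and 10 under every other setting; the exceptions were Insr with FST288, Foxo3 with FST288 under the macrophage covariate, and Irs2 and Akt1 with GFP. Without 1 array, 5 to 6 member clusters were called with GFP and 5 to 6 with FST288, and 0 in the vector comparisons. When all clusters of a gene were averaged, Irs1 and Foxo1 differed by -0.89 and -0.90 with GFP, and both were called. Of 74 calls in other named genes 45 held in every fit without 1 array; 26 were lost without both acinar-high arrays, 20 with the acinar covariate and 21 with the macrophage covariate. The replicate block lost 1 member call, Insr with FST288 (-0.37, adjusted p = 0.0746), and 10 others. Nothing in the labels says that the numbers pair the samples.

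With 1 exception, Ccnd1, signs turned in values that were not called. The dim Irs1 cluster in LTKO GFP against HFD GFP was 0.04 with quantile normalization and 0.02 with the replicate block; with the macrophage covariate it was 0.06 (LTKO against HFD, FST288), -0.04 (vector, HFD), 0.03 (vector, LTKO) and 0.07 (difference of vector effects). The bright Irs1 cluster was -0.06 (vector, LTKO) and -0.01 (difference) with the mean of clusters. Akt2 was 0.01 (LTKO against HFD, FST288) with quantile normalization, median centring and the macrophage covariate, 0.01 for the difference of vector effects with the last, and 0.05 for the vector in HFD livers without the acinar-high arrays or with the acinar covariate; Foxo3 was there 0.25 and 0.26. Pde3b was -0.07 with quantile normalization and Mttp 0.02 with the replicate block (both LTKO GFP against HFD GFP). Ccnd1, called at 0.69 in LTKO FST288 against HFD FST288, was -0.09 with the macrophage covariate; the cause was not tested. Other uncalled values took both signs as single arrays were left out. Between LTKO GFP and HFD GFP, the dim Foxo1 cluster ran from -0.34 to 0.10, Grb10 ran from -0.05 to 0.11, Pde3b ran from -0.03 to 0.07, Igf1r ran from -0.09 to 0.11, the dim Irs1 cluster ran from -0.08 to 0.05, Mttp ran from -0.14 to 0.07, Foxa1 ran from -0.21 to 0.05, Igf1 ran from -0.21 to 0.18, Igfbp1 ran from -0.26 to 1.02 and Mtor ran from -0.17 to 0.41. Between LTKO FST288 and HFD FST288, Akt2 ran from -0.05 to 0.04. For the vector in HFD livers, the dim Irs1 cluster ran from -0.05 to 0.08, Irs1 ran from -0.17 to 0.02, the dim Foxo1 cluster ran from -0.03 to 0.18 and Foxo3 ran from -0.21 to 0.05. For the vector in LTKO livers, the dim Foxo1 cluster ran from -0.33 to 0.11, Irs2 ran from -0.55 to 0.30, Insr ran from -0.22 to 0.11, Foxo4 ran from -0.47 to 0.09, Irs1 ran from -0.13 to 0.20, Igf1r ran from -0.21 to 0.03 and Pik3r1 ran from -0.36 to 0.18. For the difference of vector effects, Akt2 ran from -0.05 to 0.05, the dim Foxo1 cluster ran from -0.38 to 0.07, Irs2 ran from -0.62 to 0.23, Foxo4 ran from -0.48 to 0.09 and Irs1 ran from -0.03 to 0.30.

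Counts over all clusters moved by over 1.5 times as follows. For LTKO GFP against HFD GFP, 3002 became 1707 at an adjusted p under 0.01 and 1844 with a change of at least 1.5-fold. For LTKO FST288 against HFD FST288, 2353 became 950 without both acinar-high arrays, 1142 with the acinar covariate, 853 with the macrophage covariate, 1397 at 0.01 and 1527 at 1.5-fold. For the vector in HFD livers, 226 became 412 with only those groups, 103 without a trend, 80 over all clusters of the table, 6 and 35 with the acinar settings, 80 at 0.01 and 147 at 1.5-fold. For the vector in LTKO livers, 31 became 0 in limma with only those groups, 16 without a trend, 15 over all clusters, 19 with the replicate block, 14 without both acinar-high arrays and 8 at 0.01. For the difference, 45 became 3, 6, 28, 0 and 1 under no trend, all clusters, block, and the acinar settings, 9 with the macrophage covariate and 8 at 0.01. Without 1 array these counts ran from 1920 to 3133, 1582 to 2460, 81 to 307, 21 to 240 and 5 to 253.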
